A study of Mus musculus with 15 samples.

Results

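Ccl3, Ccl4, Ccl5 and Xcl1 are chemokine genes that were followed here in the thymus of mice given a T-cell antigen. They were found by their symbols: each was the gene name of exactly 1 probe set, a group of array probes read out as 1 value, and these 4 genes stand among 19938 measured genes. The set was chosen by measured values of these same arrays, namely the rise of Ccl3, Xcl1 and Ccl4 in NOD.LCMV mice given gp33. The members' values in that response are therefore a description with no test. The same holds for both strain differences and for the difference between the strains' responses, which contain arrays of NOD.LCMV mice. Tests on the 4 genes are given only for the response of NOD.Ln82-LCMV mice.

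Total RNA of whole thymus was measured on 15 Affymetrix Mouse Gene 1.0 ST arrays, 1 for each mouse. All mice were females aged 5 weeks and had received 0.5 µg of peptide into a vein 2 h earlier, either gp33, an antigen of lymphocytic choriomeningitis virus, or a control peptide that also binds the class I molecule Db. NOD.Ln82-LCMV mice gave 4 arrays with the control peptide and 5 with gp33, and NOD.LCMV mice gave 3 with each peptide. The study's title concerns Nfkbid, as a gene of the diabetes locus Idd7, and the poor deletion of CD8 T cells in NOD thymus. Both strain names hold LCMV, which in published NOD.LCMV mice stands for a transgenic T-cell receptor that recognises gp33 on Db, so the controls carry it too. The labels describe neither that element nor the Ln82 segment. Nor do they name a processing batch: strain and any batch that ran along with it cannot be told apart.

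Chemokines are small secreted proteins that guide leukocytes through receptors on their surface. Ccl3, Ccl4 and Ccl5 encode inflammatory chemokines of the CC family, which activated CD8 T cells, natural killer cells and macrophages release, and which draw monocytes, macrophages and T cells. Xcl1 encodes lymphotactin, which activated CD8 T cells and natural killer cells make and which acts on Xcr1, the receptor that marks cross-presenting dendritic cells. In the thymus, medullary epithelial cells are a further known source of Xcl1.

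Values are log2 array values, a change of 1 is a doubling, and errors beside group means are SD over mice while errors beside differences are standard errors from the limma model. The arrays had medians between 7.59 and 7.67, and thymocyte genes such as Cd3e were high on every array, from 12.83 to 13.01. Replicate 1 of the NOD.Ln82-LCMV control group had values unlike the rest of its group for several of the genes described. Its root mean square distance over all genes was 0.145, 0.145 and 0.191 log2 to the 3 NOD.LCMV controls and 0.157 to 0.194 to the other NOD.Ln82-LCMV controls, which lay 0.125 to 0.205 from each other. Besides Ccl3 and Xcl1, the B-cell gene Ms4a1 was one that lay lower on this array than on the other 3 of its group, at 7.23 against 8.41 to 8.86. Differences of the 4 genes that use the array are given with and without it, as are the calls of the gene lists where they changed. Signal came from whole tissue, where fewer cells of a type and less RNA per cell cannot be told apart.

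Ccl3, a ligand of Ccr1, was at 11.91, 11.70 and 11.49 in the 3 NOD.LCMV mice given gp33 and at 6.74, 7.37 and 7.18 in those given the control peptide. In NOD.Ln82-LCMV mice it was at 9.46, 8.57, 8.80, 8.76 and 8.99 with gp33. With the control peptide the 4 mice of that strain had 7.0, 8.38, 8.91 and 8.72. Every NOD.LCMV mouse given gp33 lay above all 12 other mice, while the gp33 and control values of NOD.Ln82-LCMV overlapped. Group means ran from 7.10 ± 0.32 (SD, n = 3) in NOD.LCMV controls over 8.25 ± 0.86 (n = 4) in NOD.Ln82-LCMV controls and 8.92 ± 0.34 (n = 5) in NOD.Ln82-LCMV with gp33 to 11.70 ± 0.21 (n = 3) in NOD.LCMV with gp33. The first 3 groups overlapped with their neighbours in this order and the last did not. The response of NOD.LCMV to gp33 was 4.60 ± 0.37, which is 24.3-fold.

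Xcl1, the ligand of Xcr1, was at 12.42, 11.60 and 12.06 in NOD.LCMV mice with gp33, and at 7.55, 7.74 and 7.38 with the control peptide. NOD.Ln82-LCMV mice had 9.73, 8.61, 9.17, 8.88 and 9.37 with gp33. Their controls had 7.19, 8.31, 8.34 and 8.33. Here too the NOD.LCMV mice with gp33 lay above all others, and in NOD.Ln82-LCMV every mouse given gp33 was above every control. The means were 7.56 ± 0.18 (SD, n = 3), 8.04 ± 0.57 (n = 4), 9.15 ± 0.43 (n = 5) and 12.03 ± 0.41 (n = 3), with the groups in the same order as for Ccl3. Neighbouring groups overlapped only between the controls of both strains. The NOD.LCMV response was 4.47 ± 0.31, or 22.2-fold.

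Ccl4, which lies beside Ccl3 on chromosome 11 and encodes a close relative of its protein, was at 8.97, 8.39 and 8.36 in NOD.LCMV mice with gp33. The other 12 mice lay between 6.59 and 6.78. Among them were NOD.Ln82-LCMV mice with gp33 at 6.70, 6.66, 6.61, 6.61 and 6.78, their controls at 6.63, 6.63, 6.59 and 6.77, and NOD.LCMV controls at 6.59, 6.70 and 6.72. These 3 groups overlapped fully, with means of 6.67 ± 0.07 (SD, n = 5), 6.66 ± 0.08 (n = 4) and 6.67 ± 0.07 (n = 3). All of them lay under 6.92, the upper bound of the dimmest 33.3% of genes by mean level, and no background level was measured, so by how much their values can follow the transcript is not known. The NOD.LCMV mean with gp33 was 8.57 ± 0.34 (n = 3) and the response 1.90 ± 0.12, or 3.74-fold. Without replicate 1 of that group, the highest of the 3, the response was 1.70.

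Ccl5, a ligand of Ccr1 and Ccr3 that memory and effector CD8 T cells store as transcript, moved least. It was at 11.03, 10.83 and 10.90 in NOD.LCMV mice with gp33 and at 10.64, 10.49 and 10.43 in their controls. NOD.Ln82-LCMV mice had 10.77, 10.58, 10.68, 10.48 and 10.71 with gp33. Their controls had 10.54, 10.43, 10.62 and 10.77. The NOD.LCMV mice with gp33 were again the highest, by a margin of 0.06 between their lowest value and the highest of the other mice, and the 3 other groups overlapped. Group means spanned 0.40, from 10.52 ± 0.11 (SD, n = 3) in NOD.LCMV controls to 10.92 ± 0.10 (n = 3) with gp33, and the response was 0.40 ± 0.09, or 1.32-fold.

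**Figure D1:**
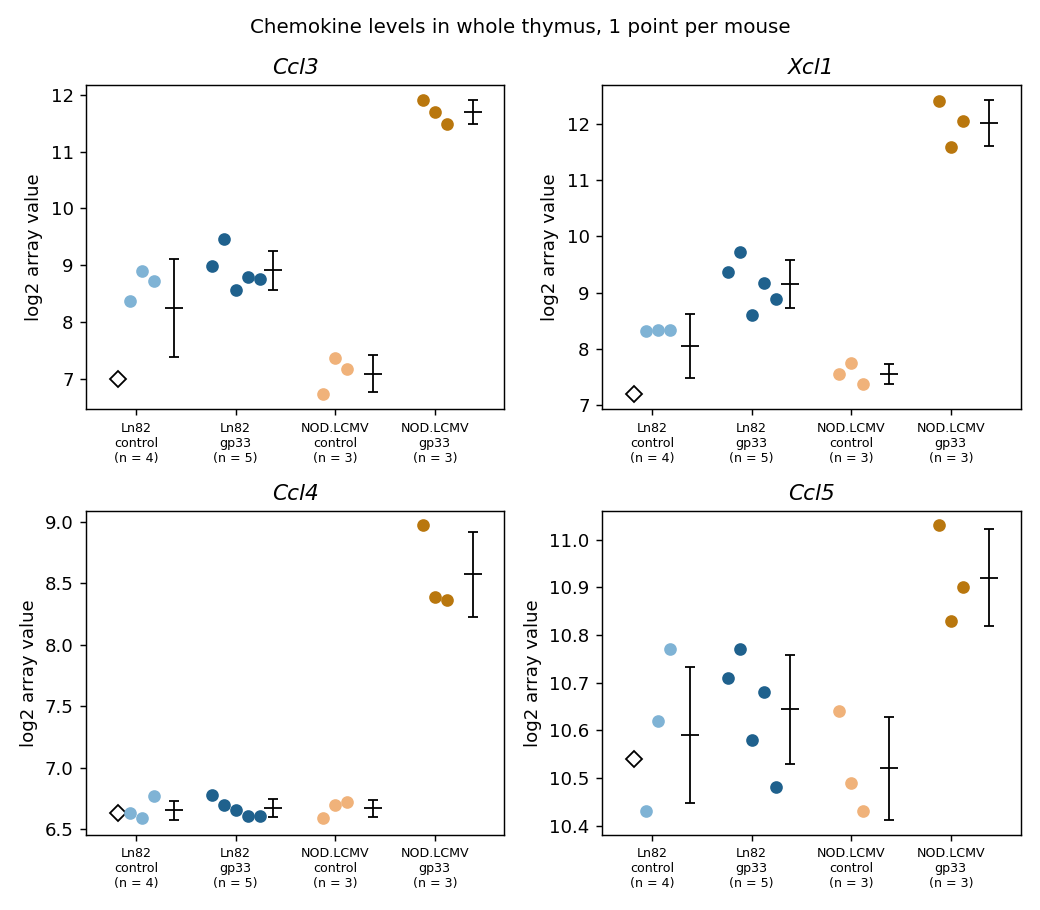
Log2 array values of Ccl3, Xcl1, Ccl4 and Ccl5 in each mouse (points), with group mean and SD (bars), for the 4 groups of strain and peptide, where "Ln82" stands for NOD.Ln82-LCMV. The open diamond is NOD.Ln82-LCMV control replicate 1, which had the lowest Ccl3 (7.0) and Xcl1 (7.19) of its group, and each panel has its own vertical scale.

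The difference between the strains with gp33, NOD.LCMV minus NOD.Ln82-LCMV, was 2.78 ± 0.33 for Ccl3 and 2.88 ± 0.28 for Xcl1, which are 6.89-fold and 7.33-fold. For Ccl4 it was 1.90 ± 0.11 (3.74-fold), and for Ccl5 it was 0.28 ± 0.08 (1.21-fold). The response of NOD.LCMV exceeded that of NOD.Ln82-LCMV by 3.94 ± 0.48 for Ccl3, 3.36 ± 0.40 for Xcl1, 1.89 ± 0.15 for Ccl4 and 0.35 ± 0.12 for Ccl5. These values share arrays with the response by which the genes were chosen.

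Ccl3 and Xcl1, on chromosomes 11 and 1, had closely similar patterns over the arrays, so the bases before their starts are shown. That similarity rests in part on the large rise in NOD.LCMV mice given gp33, by which both were chosen. RefSeq promoters (assembly GRCm38.p6) were at hand for these 2 of the 4 genes. Each line gives the 250 bases before the gene's start, 5′ to 3′ on the gene's own strand, with capitals for the motif matches described next. The Ccl3 stretch is chr11:83649379-83649628 and the Xcl1 stretch is chr1:164935523-164935772, both on the minus strand.
Ccl3: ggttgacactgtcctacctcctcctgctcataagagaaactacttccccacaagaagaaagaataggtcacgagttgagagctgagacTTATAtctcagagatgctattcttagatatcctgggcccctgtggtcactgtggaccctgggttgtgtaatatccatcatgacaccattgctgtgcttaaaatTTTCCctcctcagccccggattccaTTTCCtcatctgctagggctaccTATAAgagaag
Xcl1: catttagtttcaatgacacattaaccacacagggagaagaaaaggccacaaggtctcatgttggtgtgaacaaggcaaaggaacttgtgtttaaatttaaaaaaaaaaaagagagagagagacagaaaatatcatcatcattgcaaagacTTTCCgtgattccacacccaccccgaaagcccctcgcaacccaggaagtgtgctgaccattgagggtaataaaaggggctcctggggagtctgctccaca
Both strands were searched for GGAAA, the core bound by NFAT, a factor that T-cell receptor signals activate, and for TATAA, the TATA box core. All matches of the NFAT core lay on the strand opposite to the gene and so read TTTCC in the lines printed. They lay from -100 to -96 before Xcl1, and at -59 to -55 and -34 to -30 before Ccl3, where -1 is the last base before the start. This core occurs in 55.6% of the 32851 mouse promoters of this length. TATAA lay from -11 to -7 before Ccl3 on its own strand and from -162 to -158 on the other, printed there as TTATA, and was found in 22.8% of promoters. Neither stretch held, on either strand, a κB site written as GGG, any pair of bases and TTTCC (1.41% of promoters), TGANTCA, an AP-1 site (6.75%), or TGACGT, the core of a cAMP response element (6.47%). A match is a description of the letters and not of binding.

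In NOD.Ln82-LCMV mice gp33 raised none of the 4 genes past the threshold, which was a limma p under 0.05 after Benjamini-Hochberg adjustment across the 19938 genes. In this strain 1 of all 19938 genes was called, 0.00502% of those tested, and that gene was higher; the share called lower was 0%. An unadjusted limma p under 0.05 was reached by 1190 genes, among them Xcl1 and Ccl3. Xcl1 was higher by 1.11 ± 0.25, or 2.16-fold with a 95% interval of 1.48 to 3.14, with a limma adjusted p of 0.374 and an exact permutation p of 0.0159 (two-sided, 126 splits of the 9 mice). Ccl3 was higher by 0.66 ± 0.30, or 1.58-fold with an interval of 1.01 to 2.47 (limma adjusted p = 0.825, exact permutation p = 0.111). Ccl4 differed by 0.02 ± 0.10, with an interval from -0.19 to 0.22 on the log2 scale (limma adjusted p = 0.997, exact permutation p = 0.738). For Ccl5 the difference was 0.05 ± 0.07, from -0.10 to 0.21 (limma adjusted p = 0.996, exact permutation p = 0.556).

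Leaving out NOD.Ln82-LCMV control replicate 1 lowered both of the larger values. Xcl1 was then at 8.33 ± 0.02 (SD, n = 3) in the controls and higher by 0.83 ± 0.21 with gp33, with every gp33 mouse still above every control (limma adjusted p = 0.98, exact permutation p = 0.0357 over 56 splits). Ccl3 was at 8.67 ± 0.27 (n = 3) in the controls and higher by 0.25 ± 0.19 with gp33, where the groups overlapped (limma adjusted p = 1.00, exact permutation p = 0.375). Among the 5 NOD.Ln82-LCMV mice given gp33, replicate 1 had the highest Ccl3 and Xcl1 and replicate 2 the lowest of both.

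With the control peptide the mean of Ccl3 was lower in NOD.LCMV than in NOD.Ln82-LCMV, with a log2 difference of -1.16 ± 0.34, which is 0.449-fold with a 95% interval of 0.27 to 0.746. The NOD.LCMV controls are one side of the comparison by which the genes were chosen, so the difference and its interval are description and no test. Control replicate 1 of NOD.Ln82-LCMV, at 7.0, lay within the NOD.LCMV values, and the groups overlapped. Without that mouse the difference was -1.57 ± 0.21 and the groups did not overlap. Over all fits that left out 1 array it lay between -1.57 and -0.94.

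Xcl1 differed by -0.49 ± 0.29 in the same comparison, with overlapping groups, and by -0.77 ± 0.24 without NOD.Ln82-LCMV control replicate 1, with groups apart. For Ccl4 the difference was 0.02 ± 0.11 and for Ccl5 it was -0.07 ± 0.08, and both sets of groups overlapped. Their 95% intervals were -0.22 to 0.25 and -0.25 to 0.11 on the log2 scale.

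**Figure D2:**
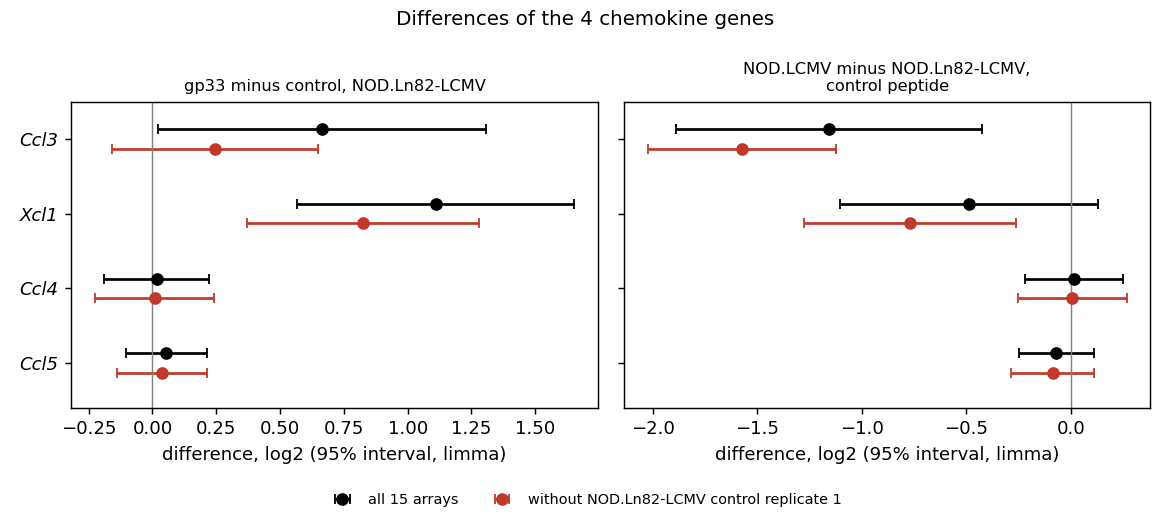
Log2 differences of the 4 genes with 95% intervals from limma for 2 comparisons, gp33 minus control peptide in NOD.Ln82-LCMV (left) and NOD.LCMV minus NOD.Ln82-LCMV with the control peptide (right), on all 15 arrays (black) and without NOD.Ln82-LCMV control replicate 1 (red). Leaving out that array moved Xcl1 from 1.11 to 0.83 on the left and Ccl3 from -1.16 to -1.57 on the right, and Ccl4 and Ccl5 stayed near 0 in both panels. The right panel is description and no test, since the NOD.LCMV controls entered the choice of the genes.

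The genes with the pattern most like each member's were found by the root mean square difference over the 15 arrays after each gene was centred on its own mean. Values were not scaled, so this distance depends on the size of a gene's change as well as its shape. For Ccl3 they were Xcl1 (0.349 log2), Nr4a3 (0.349), Cxcl10 (0.435), Tagap (0.454) and Il1a (0.469). Nr4a3 is an immediate early nuclear receptor gene, Cxcl10 an interferon-induced chemokine and Il1a a cytokine of the interleukin 1 family. The nearest to Xcl1 were Ccl3 (0.349), Nr4a3 (0.377), Tagap (0.396), Il1a (0.399) and Cxcl10 (0.466).

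Ccl4 had other neighbours, Il1f9 (0.147), Acod1 (0.166), Cish (0.169), Irf1 (0.17) and Cxcl11 (0.186). Irf1 is an interferon-induced transcription factor gene, Cish a feedback inhibitor of cytokine signalling and Acod1 the enzyme that makes itaconate. From Ccl3 and Xcl1 the pattern of Ccl4 was 0.992 and 0.981 away. Its group means spanned 1.92 log2, against 4.60 for Ccl3 and 4.47 for Xcl1, so a smaller change enters these distances. For Ccl5, whose group means spanned less than 1 log2, no neighbours were sought.

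Of the genes that encode receptors for these chemokines, 5 were analysed. In the NOD.LCMV response 2 of the 5 rose and 1 fell, where 19.8% of all genes were called, 7.29% higher and 12.5% lower. Xcr1, the receptor for Xcl1, was at 8.56, 8.67 and 8.72 in NOD.LCMV mice with gp33 and at 9.30, 9.28 and 9.38 in their controls, a difference of -0.67 ± 0.08 (limma adjusted p = 2.27e-05). NOD.Ln82-LCMV mice had 9.31 to 9.60 with gp33 and 9.44 to 9.67 without it. All NOD.LCMV mice with gp33 thus lay below the other 12, in the same mice in which Xcl1 was highest.

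Ccr1, a receptor for Ccl3 and Ccl5 on monocytes and neutrophils, was at 5.83, 5.80 and 5.95 in NOD.LCMV mice with gp33, against 5.49, 5.44 and 5.36 in their controls. It rose by 0.43 ± 0.06 (limma adjusted p = 4.26e-05), at values in the dimmest 33.3% of genes. Ackr1, an atypical receptor that binds inflammatory chemokines on small veins, was at 7.18, 7.18 and 7.34 against 6.72, 6.93 and 6.91, and rose by 0.38 ± 0.07 (limma adjusted p = 0.00118). Ccr3, an eosinophil receptor for Ccl5, differed by -0.15 ± 0.13 (limma adjusted p = 0.561). For Ackr2, a scavenger of CC chemokines, the difference was -0.08 ± 0.07 (limma adjusted p = 0.581).

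None of the 5 receptors was called in NOD.Ln82-LCMV mice given gp33, with differences from -0.08 to 0.11, and none reached an unadjusted limma p under 0.05. None was called between the strains with the control peptide, where 10.3% of all genes were called, 4.77% higher and 5.54% lower in NOD.LCMV. An unadjusted limma p under 0.05 was reached there by 2, and by 4453 of all 19938 genes. The 2 were Ccr3 at 0.35 (limma adjusted p = 0.0886) and Xcr1 at -0.21 (0.0943). The difference between the responses, NOD.LCMV minus NOD.Ln82-LCMV, was called for 3 of the 5, where 8.73% of all genes were called, 4.46% higher and 4.26% lower. It was -0.59 ± 0.10 for Xcr1 (limma adjusted p = 0.00184), 0.40 ± 0.07 for Ccr1 (0.00203) and 0.34 ± 0.09 for Ackr1 (0.0286). The call on Ackr1 was lost in 6 of the fits that left out 1 array, with adjusted p values up to 0.0853. Without NOD.Ln82-LCMV control replicate 1 the called receptors were the same in each of these comparisons.

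**Figure D3:**
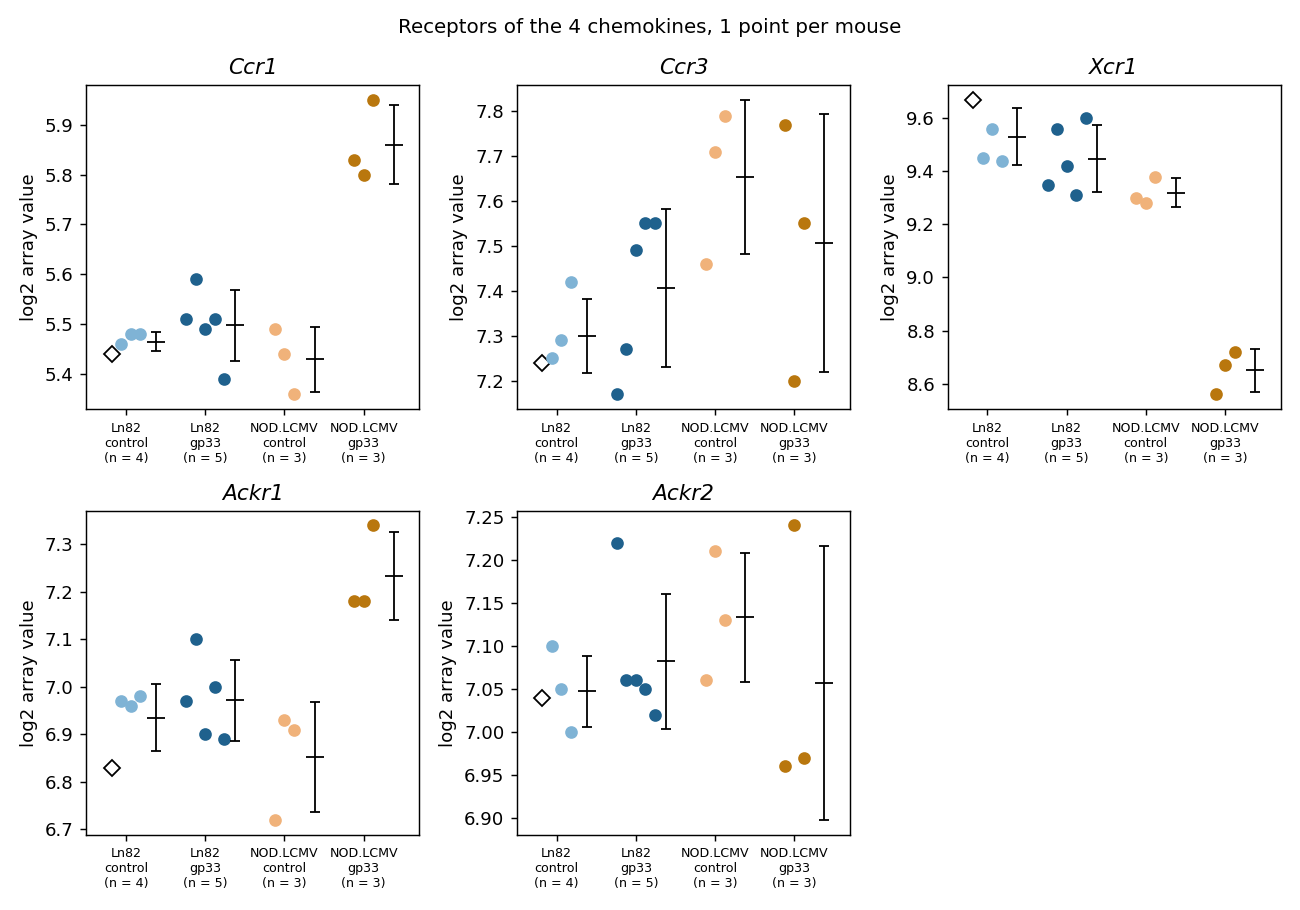
Log2 array values of 5 receptor genes in each mouse (points), with group mean and SD (bars), where "Ln82" stands for NOD.Ln82-LCMV and the open diamond is NOD.Ln82-LCMV control replicate 1. Xcr1 was at 8.56 to 8.72 in NOD.LCMV mice given gp33 and at 9.28 or above in the other mice, and Ccr1 and Ackr1 were highest in NOD.LCMV mice given gp33. Ccr3 and Ackr2 were not called in the NOD.LCMV response, and with the control peptide the mean of Ccr3 was 0.35 higher in NOD.LCMV.

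Of the 32 other chemokine genes measured, out of 34 listed, 17 rose and 1 fell in the NOD.LCMV response, with a median of 0.33 beside -0.03 over all genes. In that response 7.29% of all genes rose and 12.5% fell. The 4 with the smallest adjusted p were Ccl2, which draws monocytes, and the 3 interferon-induced ligands of Cxcr3. Cxcl10 rose by 3.57 ± 0.22 (limma adjusted p = 1.84e-08), Cxcl9 by 3.33 ± 0.19 (1.12e-08), Ccl2 by 2.61 ± 0.14 (3.1e-09) and Cxcl11 by 1.82 ± 0.11 (1.54e-08). The one that fell was Cxcl12, a chemokine of stromal cells, at 8.88 to 9.06 with gp33 and 9.27 to 9.35 without it. Beside these, Ccl3 and Xcl1 had the largest log2 differences of the 36 chemokine genes, while Ccl5, at 0.40, lay near the median of the list. The rise of Ccl3 and Xcl1 in this response entered the choice of the members, so their rank is description only.

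NOD.Ln82-LCMV mice given gp33 had no other chemokine called, with a median of 0.07 and differences from -0.12 to 0.73. An unadjusted limma p under 0.05 was reached by 8 of the 32, and by 1190 of all 19938 genes. That count uses control replicate 1 of this strain. Without that mouse Cxcl10, which had the largest of these differences, was at 0.50. The difference between responses was called higher for 15 and lower for 1 of the 32, beside 4.46% and 4.26% of all genes. Without NOD.Ln82-LCMV control replicate 1 the counts were 16 and 1, with Ccl19 at 0.82 (limma adjusted p = 0.0114) added. On all arrays the smallest adjusted p values were those of Ccl2 at 2.21 ± 0.18 (limma adjusted p = 1.07e-06) and Cxcl11 at 1.65 ± 0.14 (2.25e-06). Next were Cxcl9 at 2.73 ± 0.25 (3.98e-06) and Ccl7, a monocyte chemokine, at 1.55 ± 0.15 (6.79e-06). The largest difference among the 32 was that of Cxcl10, at 2.84. With the control peptide 4 of the 32 were lower in NOD.LCMV and none higher, where 5.54% of all genes were lower and 4.77% higher. Ccl11, an eosinophil chemokine, was at -0.56 ± 0.13 (limma adjusted p = 0.0127), Ppbp, a platelet chemokine, at -0.90 ± 0.21 (0.0141), Cxcl10 at -0.74 ± 0.20 (0.0315) and Ccl22, a ligand of Ccr4, at -0.35 ± 0.11 (0.0478). Like Ccl3 and Xcl1, Cxcl10 was low in NOD.Ln82-LCMV control replicate 1, at 9.13 against 9.86 to 10.25 in the other 3. Each call was lost when some single array was left out, and without NOD.LCMV control replicate 3 the count was 0. Without NOD.Ln82-LCMV control replicate 1 it was 6, with Ccl17 at -0.48 (limma adjusted p = 0.0191) and Cxcl16 at -0.30 (0.0267) added, and array weights called 2 of the list higher.

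**Figure D4:**
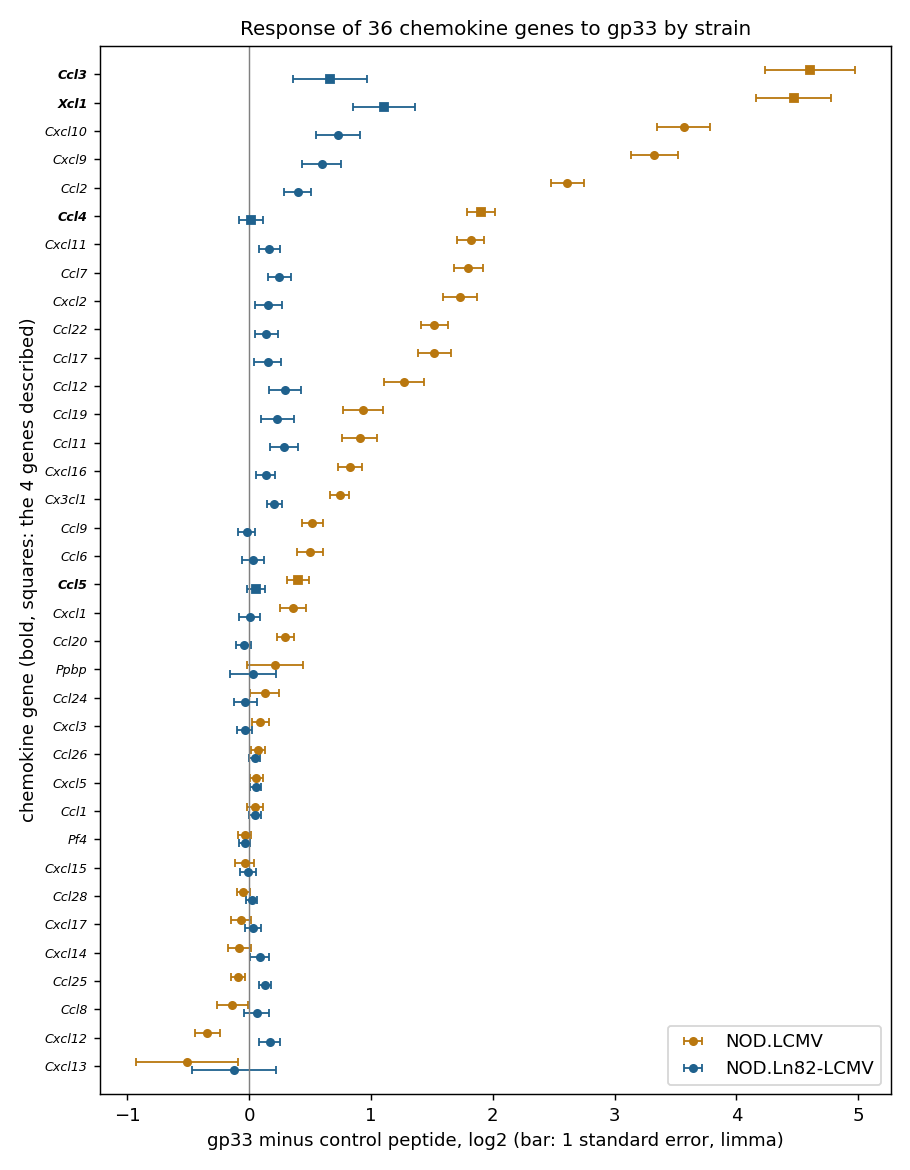
Log2 difference, gp33 minus control peptide, of 36 chemokine genes in NOD.LCMV (orange) and NOD.Ln82-LCMV (blue) with 1 standard error from limma, ordered by the NOD.LCMV value, with Ccl3, Xcl1, Ccl4 and Ccl5 as squares. Ccl3 (4.60) and Xcl1 (4.47), which were chosen by this rise, stand at the top in NOD.LCMV, and the NOD.Ln82-LCMV values lie between -0.12 and 1.11.

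Of 17 other chemokine receptors 2 rose and 3 fell in NOD.LCMV, where 7.29% of all genes rose and 12.5% fell. Ccrl2, a chemerin-binding receptor of activated leukocytes, rose by 1.62 ± 0.08 (limma adjusted p = 1.79e-09), from 6.56 to 6.74 in controls to 8.14 to 8.38 with gp33. Cxcr2, a neutrophil receptor, rose by 0.77 ± 0.15 (0.0015). Ccr9, which binds the thymic chemokine Ccl25, fell by 0.40 (0.000732), Ccr7, which guides maturing thymocytes to the medulla, fell by 0.65 (0.00491), and Cx3cr1 fell as well. Without NOD.Ln82-LCMV control replicate 1, 4 rose and 4 fell. NOD.Ln82-LCMV mice had 0 of the 17 called with gp33 and 2 at an unadjusted limma p under 0.05, which 1190 of all 19938 genes reached. The difference between responses was higher for Ccrl2, at 1.53 ± 0.10 (limma adjusted p = 2.03e-07), and Cxcr2, at 0.77 ± 0.19 (0.0198), and lower for Cx3cr1, at -0.40 ± 0.11 (0.0283). Of all genes 4.46% were called higher and 4.26% lower in it. Without NOD.Ln82-LCMV control replicate 1, Ccr7, at -0.653 (limma adjusted p = 0.0133), and Ccr9, at -0.365 (0.00279), were called lower as well. The call on Cx3cr1 was lost in 7 of the 15 fits that left out 1 array and with a second quantile normalization (adjusted p = 0.0528), and that on Cxcr2 in 2. With the control peptide Cxcr4, the receptor for Cxcl12, was at -0.27 ± 0.06 (0.00895) and Ccr8, a receptor of maturing and regulatory T cells, at -0.81 ± 0.21 (0.0215). Of all genes 5.54% were called lower and 4.77% higher in NOD.LCMV there. Ccr8 was at 7.41 in NOD.Ln82-LCMV control replicate 1 and at 8.29 to 8.38 in the other 3, and its call was lost in 5 of the 15 fits, that on Cxcr4 in 1. Without that mouse Cxcr2, at 0.55 (limma adjusted p = 0.006), Ccr7, at 0.39 (0.034), and Ccr9, at 0.18 (0.0272), were called higher in NOD.LCMV. In that fit 13.6% of all genes were called in either direction.

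Among 14 products of effector CD8 T cells, 8 rose and none fell in the NOD.LCMV response, with a median of 0.35. Of all genes 7.29% rose and 12.5% fell there. Ifng, the cytokine interferon gamma, was at 8.78 to 9.53 with gp33 and 6.60 to 6.75 without it and rose by 2.47 ± 0.15 (limma adjusted p = 1.22e-08). Tnf rose by 2.39 ± 0.15 (3.18e-08), Gzmb, the cytotoxic protease granzyme B, by 2.06 ± 0.14 (6.57e-08) and Tnfsf14, a cytokine of the TNF family, by 1.98 ± 0.13 (4.67e-08). Lta, Il2, Fasl and Srgn also rose. In NOD.Ln82-LCMV mice none of the 14 was called, and 1 reached an unadjusted limma p under 0.05, as did 1190 of all 19938 genes. The differences of the 14 lay from -0.09 to 0.21, below those of Xcl1 and Ccl3. Without NOD.Ln82-LCMV control replicate 1, Ccl3 was at 0.246, close to Tnf at 0.235, and Xcl1 was at 0.825. Between the responses 7 of 14 differed and were higher in NOD.LCMV, where 4.46% of all genes were called higher. They were led by Ifng at 2.30 ± 0.19 (1.33e-06), Tnf at 2.22 ± 0.20 (3.45e-06), Gzmb at 1.91 ± 0.19 (6.99e-06) and Tnfsf14 at 1.78 ± 0.17 (7.35e-06). With the control peptide the granule genes Gzma, at -0.47 ± 0.11 (0.0136), and Srgn, at -0.16 ± 0.05 (0.0356), were lower in NOD.LCMV, as were 5.54% of all genes. The call on Srgn was lost in 6 of the 15 fits that left out 1 array and with a second quantile normalization (adjusted p = 0.128), and that on Gzma in 2. Prf1, which encodes the pore-forming protein perforin, was at 9.03 in NOD.Ln82-LCMV control replicate 1 and at 8.09 to 8.33 in the other 3. Without that mouse Prf1 was higher in NOD.LCMV controls by 0.56 ± 0.07 (limma adjusted p = 0.000225), and it was called lower in the NOD.LCMV response. The difference between responses was then also called lower for Prf1, at -0.45 ± 0.10 (limma adjusted p = 0.00806).

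Markers of other cells that can make or sense these chemokines moved in part with the NOD.LCMV response. The counts here and in the next paragraph stand beside 7.29% of all genes that rose and 12.5% that fell in it. Of 6 markers of natural killer cells, which can make these chemokines, 1 (Klrd1) fell and none rose. Their summed level was 8.32 to 8.41 (log2) in NOD.LCMV controls and 8.13 to 8.27 with gp33. All group means of these 6 markers lay under 6.92, the bound of the dim genes given for Ccl4. By how much their values can follow natural killer cells is therefore not known. Of 9 macrophage markers 1 rose and 1 fell, and the summed level was 13.10 to 13.26 and 13.12 to 13.26. The one that rose was Cd14, from 6.26 to 6.61 in controls to 7.85 to 8.14. Of 8 markers of cross-presenting dendritic cells, a list that also holds Xcr1, 5 fell and 1 (Irf8) rose. Their summed level was 12.30 to 12.37 in controls and 12.59 to 12.74 with gp33, and Irf8 itself went from 10.33 to 10.47 to 11.81 to 12.11. The mean of their log2 values, in which each marker counts alike, was 8.714 to 8.755 in controls and lower, 8.516 to 8.566, with gp33.

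Neutrophil markers, 4 of 9 of which rose, had a summed level of 10.26 to 10.59 in NOD.LCMV controls and 10.71 to 11.21 with gp33. Of 9 thymocyte markers 4 fell, among them Cd8a from 12.62 to 12.67 in controls to 11.88 to 12.29, and the summed level was 15.03 to 15.17 and 14.59 to 15.02. None of 5 B-cell markers was called (summed level 10.10 to 10.89 and 9.99 to 10.47), and 2 of 6 thymic epithelial markers fell (12.82 to 12.86 and 12.79 to 12.94). No marker of these 7 lists was called in NOD.Ln82-LCMV mice given gp33, and 6 reached an unadjusted limma p under 0.05, as did 1190 of all 19938 genes. Between the strains with the control peptide, Camp and Ltf of the neutrophil list were higher, and C1qa of the macrophages and Cd79b of the B cells lower, in NOD.LCMV. Of all genes 4.77% were called higher and 5.54% lower. Without NOD.Ln82-LCMV control replicate 1 the call on Camp was lost, and Lyz2, Ncr1 and Cd79a were called lower as well. Natural killer and macrophage markers had summed levels of 8.29 to 8.51 and 13.20 to 13.59 in NOD.Ln82-LCMV controls. The part of any of these cells in the chemokine levels was not tested.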

How the data were processed

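The authors deposited log2 values, 35556 probe sets on 15 arrays, made by RMA in Affymetrix Expression Console 1.1, per the submitters' processing notes; no further normalization was applied. The number of arrays limits the precision. Genes were taken from probe sets with exactly 1 symbol in the platform annotation (21789; 1621 had several and 12146 none), taking the one of highest mean, for 19938 genes in all. Each of the 4 chemokine genes had 1 probe set.

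All arrays entered 1 fit in limma 3.58.1 (R 4.3.3), each strain and peptide having its own mean, with moderated variances (degrees of freedom 11 residual, 14.9 in total). Tests were two-sided, with Benjamini-Hochberg adjustment over all genes and a threshold of 0.05. The members' response in NOD.Ln82-LCMV was also compared by exact permutation tests over mice. A planned test of their strain difference with the control peptide is given as values only, since the NOD.LCMV controls entered the choice of members. The fit was tested on simulated data. The labels call the samples biological replicates.

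The members and lists were chosen with earlier results of these data known. Named genes were the members, their receptors, up to 4 called genes with the smallest adjusted p of each further chemokine, receptor or effector list per comparison, and the 5 nearest genes to each member with group means spanning 1 log2 or more. Genes named beside these (Cxcl12, Cx3cr1, Ccl17, Cxcl16, Prf1, Lta, Il2, Fasl, Ms4a1, Cd3e and the cell markers) come from the lists and were picked after their values were seen. Summed levels are log2 of the sum of unlogged values.

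Alternatives tried were median centring, quantile normalization again, no dim genes (dimmest 33.3%), averaging probe sets per gene, a fit of only the groups compared, a variance trend, array weights, a replicate block, and 1 array left out at a time. NOD.Ln82-LCMV mice of both peptides share replicate numbers in their titles, which no label explains. Deviations of same-numbered mice correlated at 0.117, 0.008, -0.05 and -0.226, so the numbers were not treated as pairs.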

Additional observations from a re-analysis of the deposited data

Results flagged for a closer look

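Among the members and their receptors, 18 groups of 4 or 5 mice were examined for a mouse far from the rest of its group, and chance alone marks about 1 in 20 such groups. Xcl1 in NOD.Ln82-LCMV control replicate 1 was 7.19, with a gap to the nearest mouse of 0.974 of the group's range (limit 0.829). Ackr1 was 6.83 in the same mouse (0.867 of the range, limit 0.829). Ackr2 in NOD.Ln82-LCMV gp33 replicate 5 was 7.22 (0.8 of the range, limit 0.71).

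The response to gp33 differed between the strains, by the limma test of the difference itself, for 3 receptors. NOD.LCMV minus NOD.Ln82-LCMV was 0.397 for Ccr1 (adjusted p = 0.00203), -0.588 for Xcr1 (adjusted p = 0.00184) and 0.343 for Ackr1 (adjusted p = 0.0286). All 3 NOD.LCMV mice lay beyond every NOD.Ln82-LCMV mouse given gp33 in each of these genes.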

How the results depend on the processing

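Values and list counts were taken as kept if they stayed on their side of the threshold, in the same direction if called, or near the value reported. A change of sign with no call in either fit also counted as kept. The Ccl4 strain difference with the control peptide, reported as 0.02, was -0.06 with a second quantile normalization. Over the alternatives that kept all arrays, this held for 139 of 140 values of the 4 chemokine genes and 165 of 170 of the receptors. It held for 195 of 224 list counts. With 1 array left out this held for 283 of 300, 368 of 375 and 429 of 480. For the 4 genes these counts include their strain difference with the control peptide, sorted by the threshold although no test of it is given. With only the groups compared, the Ccl3 strain difference with the control peptide was -1.16, and 1 effector product was called lower in NOD.LCMV in place of 0. Without the dimmest 33.3% of genes, 1 receptor in place of 2 and 5 effector products in place of 8 rose in NOD.LCMV, as fewer of them were tested. The other chemokines that fell there numbered 0 with median centring and 2 with the mean over probe sets, and array weights called 4 other receptors higher and 6 lower. Array weights called 4350 genes between the strains with the control peptide in place of 2057, and 3175 in the difference between responses in place of 1740. The cause was not tested.

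Leaving out each array in turn gave 1.70 to 2.01 for the Ccl4 response in NOD.LCMV, 1.70 to 2.01 for its strain difference with gp33 and 1.69 to 1.99 for its difference between responses. With the control peptide the strain difference was -1.57 to -0.94 for Ccl3 and -0.77 to -0.39 for Xcl1, given as values with no test. In NOD.LCMV the counts were 0 to 1 other chemokine lower, 2 to 4 other receptors higher and 2 to 5 lower, and 0 to 1 effector product lower. Between the strains with the control peptide, 0 to 6 other chemokines were lower, and Ccl22, Cxcl10, Ccr8, Srgn, Ccl11, Ppbp, Cxcr4 and Gzma each lost the call in some fit. Under a replicate block within NOD.Ln82-LCMV, gp33 replicate 5 had no partner, no gene was called, and the response was 1.05 for Xcl1, 0.64 for Ccl3, -0.01 for Ccl4 and 0.04 for Ccl5. Of the 4 control mice, 1 correlated best with its own number. The dimness of Ccl4 limits what its 3 low groups can show.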
